A study of Caenorhabditis elegans with 4 samples.

Results

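The genes described are 10 protein-coding genes of the heterochronic pathway of Caenorhabditis elegans: lin-14, lin-29, lin-41, lin-46, lin-66, hbl-1, nhl-2, daf-12, alg-1 and ain-1. They were listed by name, with lin-28 and lin-42 not among them, out of 19973 protein-coding genes on the nuclear chromosomes. Each gene region ran from 2000 bp before to 2000 bp after the gene body on WBcel235 (ce11), and every peak of the tagged protein SEA-2 that touched a region by at least 1 bp was taken. The regions cover 146078 bp in all.

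The zinc finger protein SEA-2 acts as an autosomal signal in sex determination and also in larval timing. It was mapped by ChIP-seq, which sequences the DNA fragments that are crosslinked to a protein, in 4 biological replicates of 1 group of whole L3 larvae, with no second group to compare. The worms were of strain OP193, genotype unc-119(ed3), with the integrated transgene wgIs193, which carries sea-2 with a C-terminal TY1, EGFP and FLAG tag and unc-119 as the rescue marker. Sex is given as pooled male and female, and the age within the L3 stage as unknown. The replicates share the strain, the transgene and 1 control file. For replicates 1 and 2 the labels give fragments of 150 to 350 bp and the strain collection (CGC) as the source, and for replicates 3 and 4 sonication with a microtip and the producing laboratory. Preparation and source change together, so they cannot be told apart, and 2 replicates of each kind cannot go below p = 0.333 in a two-sided exact permutation test, so values are given by replicate. Whole larvae were used, so binding in a few cells and weak binding in many cells cannot be told apart, and the tagged protein is that of a transgene.

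The authors deposited a peak list for each replicate, a pooled list from the 4 replicates together, and a final list kept from the pooled list by its irreproducible discovery rate (IDR). The lists hold 23684 peaks in replicate 1, 30000 in each of replicates 2, 3 and 4, 3912 in the pooled list and 7.98% of that number in the final list. The replicate lists and the pooled list include background regions, since they were the input to the IDR step. The deposited lists give each peak a signal value on a scale that is not stated. Peaks were ranked within each list by this value, with rank 1 the strongest. The final list consists of the strongest peaks of the pooled list, so a final peak has the same rank in both. From each replicate list, the same number of strongest peaks as the final list holds was taken for comparison, and these are called the top peaks of that replicate. Read depth is unknown, because the lists give no read counts.

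The heterochronic genes set the order in which the larval stages take place in the epidermal seam cells and other tissues. Early in larval life, regulators such as LIN-14 and HBL-1 keep cells in early fates. MicroRNAs of the lin-4 and let-7 families then lower them, through the Argonaute ALG-1 and its partners, and the zinc finger protein LIN-29 carries out the switch from larva to adult. The nuclear receptor DAF-12, which is bound by steroid hormones called dafachronic acids, couples this sequence to the choice between growth and dauer arrest. The L3 stage lies within the period in which the let-7 family takes over.

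Of the 10 genes, 2 had a final peak. They were nhl-2, whose peak ranked 42 with a signal value of 103, and ain-1, whose peak ranked 234 with a signal value of 65.0. The lowest signal value in the final list was 57.9 and its median 73.7. Over all protein-coding genes, 2.37% had a final peak within 2000 bp by the same rule. Each of the 10 genes had at least 1 peak in the pooled list, against 23.6% of all protein-coding genes. The 10 genes are long, with a median gene body of 6530 bp against 2027 bp over all protein-coding genes, and a longer region can hold more peaks. Of the 8 members with a gene body of at least 5000 bp, 1 had a final peak and 8 a pooled peak, against 4.14% and 37.7% of all genes of that length. On the X chromosome lay 5 of the 10 genes, where 13.7% of the protein-coding genes are found.

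The stretches of sequence shown here lie under the strongest pooled peak of nhl-2, ain-1, alg-1, daf-12 and lin-66, together with the weaker peaks that overlap the strongest ones at ain-1 and lin-66. Each is the peak summit with 50 bp to either side, on the plus strand of ce11, read from the RefSeq copy of WBcel235. In lin-66, alg-1 and ain-1 the capitals mark the word GAGAGA, or its reverse complement TCTCTC, with overlapping matches joined. In nhl-2 the capitals mark an inverted repeat of 9 bp, which was chosen after its sequence was seen.
nhl-2 peak 1, chrIII:4899918-4900018: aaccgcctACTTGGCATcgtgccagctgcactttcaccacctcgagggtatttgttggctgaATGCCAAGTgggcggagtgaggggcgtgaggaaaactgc
ain-1 peak 1, chrX:16612365-16612465: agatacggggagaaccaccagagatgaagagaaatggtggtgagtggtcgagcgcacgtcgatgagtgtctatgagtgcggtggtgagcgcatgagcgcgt
ain-1 peak 2, chrX:16612565-16612665: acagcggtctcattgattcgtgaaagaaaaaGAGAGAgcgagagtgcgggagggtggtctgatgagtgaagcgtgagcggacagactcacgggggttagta
alg-1 peak 1, chrX:13948279-13948379: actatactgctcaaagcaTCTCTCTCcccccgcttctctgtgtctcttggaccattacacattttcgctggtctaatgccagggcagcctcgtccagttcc
daf-12 peak 1, chrX:10637583-10637683: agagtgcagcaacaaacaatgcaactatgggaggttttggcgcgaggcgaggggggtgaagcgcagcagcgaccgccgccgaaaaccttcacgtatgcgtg
lin-66 peak 1, chrIV:13887508-13887608: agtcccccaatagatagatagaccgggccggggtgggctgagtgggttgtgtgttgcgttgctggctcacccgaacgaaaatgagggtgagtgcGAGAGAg
lin-66 peak 2, chrIV:13887752-13887852: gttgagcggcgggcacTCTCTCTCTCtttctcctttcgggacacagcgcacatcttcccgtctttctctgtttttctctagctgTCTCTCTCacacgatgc

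GAGAGA on either strand was found within 50 bp of the summit of 5 of the 20 pooled peaks at the members, in both lin-66 peaks, both alg-1 peaks and the second ain-1 peak. Within the same distance of the summit the word was in 18.3% of all pooled peaks. Neither final peak of the members held it there, against 40.7% of the final list, though each held 1 match farther out in the peak. For comparison, 8.05% of 29784 windows of the same length, centred 200 bp upstream of annotated protein-coding starts held it. The match says only that these letters are in the window.

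The repeat at nhl-2 consists of ACTTGGCAT from position 9 of the window and its reverse complement from position 63, counted from 1 at the 5′ end. No other member peak held an inverted repeat at least that long, which 4.7% of the pooled list did. The length was taken from the nhl-2 repeat itself, so nothing is read from this count. The nhl-2 window had a GC content of 57.4%, and its flanks, 250 bp to each side, 30.2%. Over the 20 member peaks the median GC content was 47.0% at the summit, from 19.8% to 59.4%, and 40.8% in the flanks. GC content was higher at the summit than in the flanks in 16 of the 20. Over all pooled peaks the medians were 41.6% and 36.1%, with the summit higher in 65.2% of peaks, and the median over final summits was 50.5%.

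The gene nhl-2 (WBGene00003598, III, 4893658 to 4899085, minus strand) encodes a TRIM-NHL protein that works with the microRNA-induced silencing complex. Its peak (III, 4899798 to 4900137) had a summit 883 bp upstream of the 1 annotated start. The matching peak ranked 26 in replicate 1, 29 in replicate 2, 40 in replicate 3 and 767 in replicate 4. The signal values in these lists were 49.8, 24.4, 29.5 and 12.1, each on the scale of its own list. Replicates 1, 2 and 3 thus had the peak among their 50 strongest, while replicate 4 had it outside its top peaks. The summits lay 909, 844, 842 and 766 bp upstream of the start, a mean of 840 bp with an SD of 58.5 bp (n = 4). The q-values of the authors' caller were 0.00293, 0.000851, 0.00372 and 0.0594 in replicates 1 to 4, and 0.00274 in the pooled list. The summit was nearer to other annotated starts than to that of nhl-2. It lay 540 bp upstream of tag-340, a protein-coding gene on the opposite strand, and 18 bp upstream of the noncoding RNA F26F4.14.

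The gene ain-1 (WBGene00015547, X, 16613451 to 16616871, plus strand) encodes a GW182-family protein that binds Argonautes. Its final peak (X, 16612245 to 16612584) had a summit 1036 bp upstream of the 1 annotated start, which was also the nearest start of any gene. A weaker pooled peak (X, 16612445 to 16612784, rank 1087, signal value 40.0) overlapped it by 140 bp, with a summit 836 bp upstream. Both pooled peaks touched the same replicate peaks, which ranked 126 in replicate 1, 42 in replicate 2 and 310 in replicate 4, with signal values of 35.9, 22.1 and 14.2. Those summits lay 934, 1030 and 780 bp upstream, a mean of 915 bp with an SD of 126 bp (n = 3). The replicate 2 summit was 6 bp from the final summit. The replicate 4 summit was 56 bp from the weaker pooled summit and 256 bp from the final one. This SD thus mixes 2 overlapping peaks and does not measure the spread of 1 position. Replicate 3 had no peak that touched the final ain-1 peak. The nearest summit in replicate 3 was 548 bp away, and that peak ranked 15989 with a signal value of 6.76 and ended 196 bp short of it. Of all final peaks, 5 were not found in replicate 3. Another pooled peak of ain-1 (X, 16615303 to 16615642, rank 2776) lay in a coding exon, 2022 bp downstream of the ain-1 start and 547 bp downstream of that of the noncoding RNA C06G1.12, with ranks of 22767, 16381 and 1534 in replicates 1, 2 and 4 and no peak in replicate 3.

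The 2 final peaks were thus each outside the top peaks of 1 replicate, and not the same one. With replicate 3 left out, the ain-1 peak was among the top peaks of every remaining replicate and the nhl-2 peak was not. In replicate 4 this rests on the ain-1 match 780 bp upstream of the start, not on the weaker peak nearer to the final summit. With replicate 4 left out, the nhl-2 peak was and the ain-1 peak was not. With replicate 1 or replicate 2 left out, 0 of the 10 genes had a final peak among the top peaks of each of the other 3.

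The gene alg-1 (WBGene00000105, X, 13949110 to 13956261, plus strand) encodes an Argonaute that carries microRNAs. Its stronger pooled peak (X, 13948159 to 13948498, rank 923, signal value 41.7) had a summit 781 bp upstream of the first of its 4 annotated starts. The matching peak ranked 12179, 6182, 2892 and 7976 in replicates 1 to 4, so it was found in each replicate and was among the 3000 strongest in replicate 3. The weaker peak (X, 13950646 to 13950985, rank 2618, signal value 33.0) lay in a 5′ UTR, 446 bp upstream of the last annotated start. Its match ranked 16565 in replicate 1, 301 in replicate 2 and 1210 in replicate 3, and replicate 4 had none. Replicates 2 and 3 thus had the inner peak above the outer one, while replicate 1 ranked the outer one higher.

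**Figure D1:**
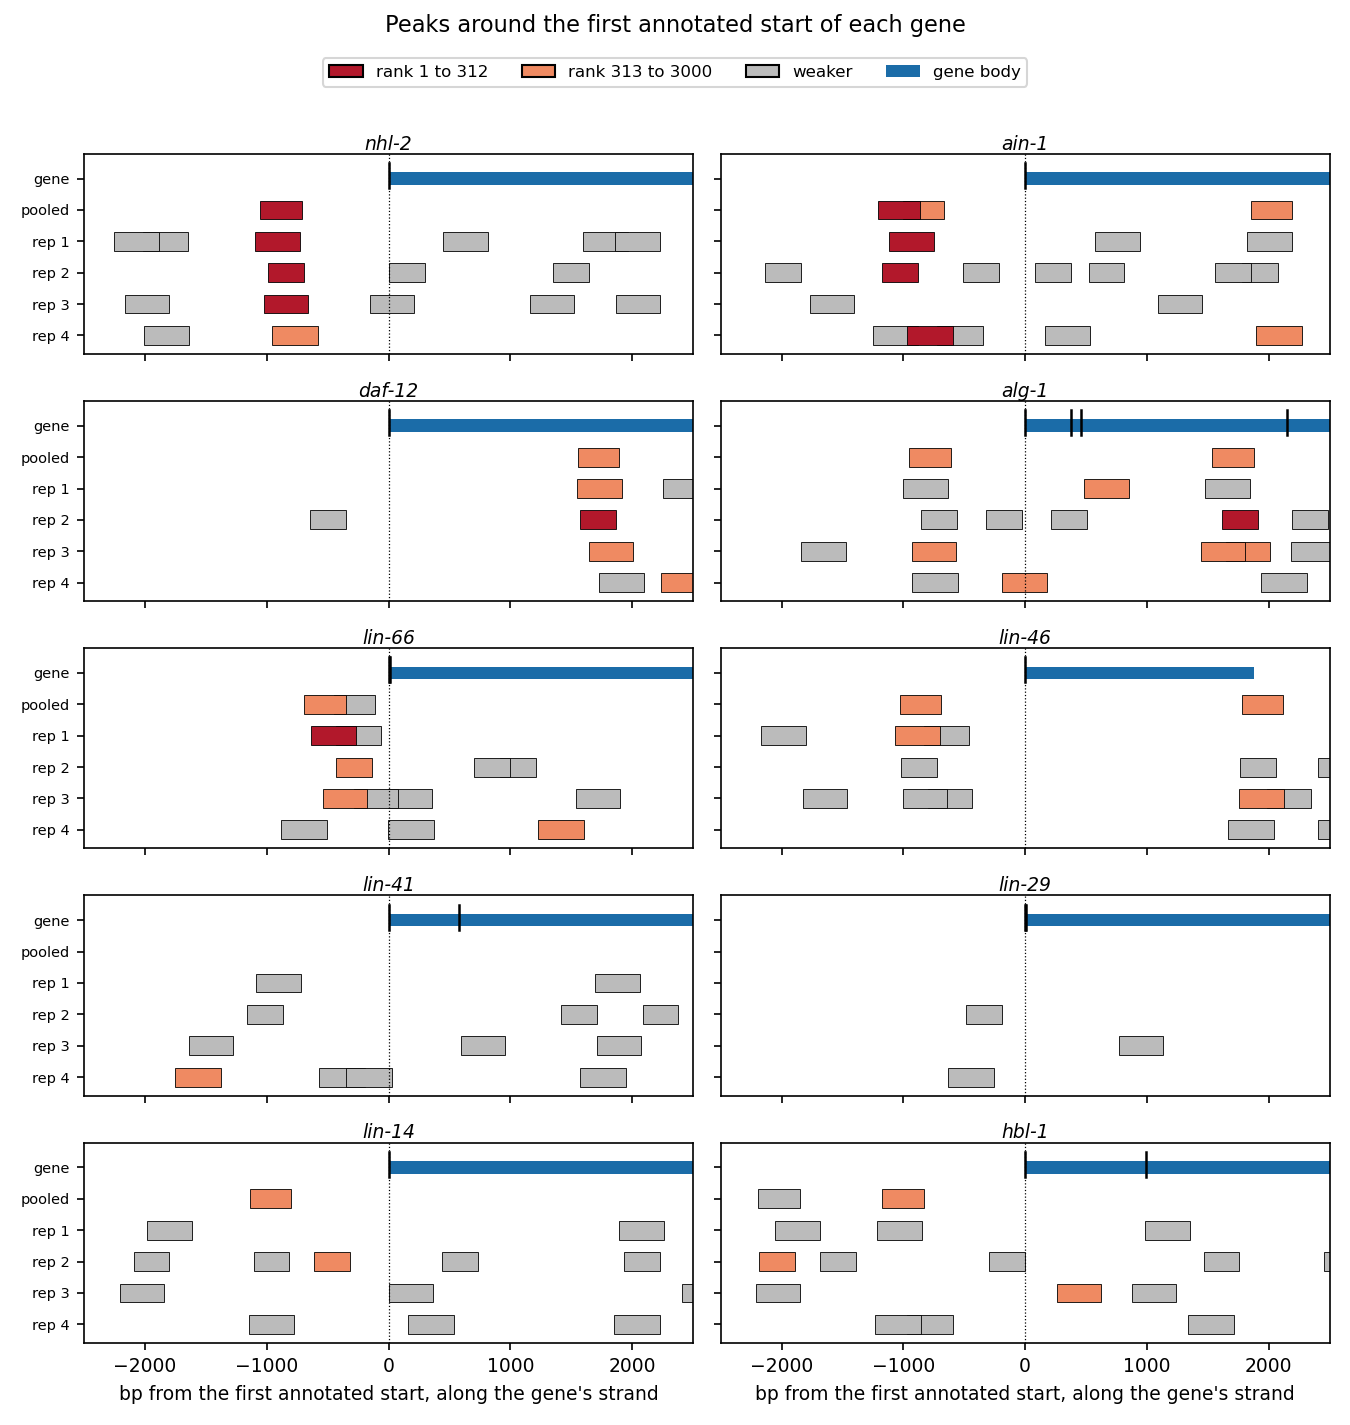
Each panel shows 1 gene from 2500 bp before to 2500 bp after its first annotated start (x axis, bp along the gene's strand), with the gene body in blue and black ticks at annotated starts. Boxes are peaks of the pooled list and of replicates 1 to 4, coloured by rank in their list; peaks are drawn where they touch the gene region. The nhl-2 panel has a peak in each replicate with its summit between 766 and 909 bp upstream, and the lin-41 and lin-29 panels have no pooled peak near the first start.

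The gene daf-12 (WBGene00000908, X, 10635908 to 10666875, plus strand) encodes the nuclear receptor for dafachronic acids and has 9 annotated starts over 30968 bp. Its stronger pooled peak (X, 10637463 to 10637802, rank 620, signal value 46.6) lay in intron 1, 1725 bp downstream of the first start. It was the strongest member peak outside the final list, with a q-value of 0.157. Its match ranked 2408 in replicate 1, 219 in replicate 2, 1359 in replicate 3 and 24572 in replicate 4, so replicate 2 alone had it among its top peaks. The summits lay 1733, 1722, 1825 and 1912 bp downstream of the start, a mean of 1798 bp with an SD of 88.9 bp (n = 4). A second peak (X, 10657943 to 10658282, rank 1978, signal value 34.9) lay in intron 3, 1226 bp upstream of an internal start. Replicate 3 had it at rank 733 and replicate 2 at rank 26682, and replicates 1 and 4 had none.

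The genes lin-66 and lin-46 act in the branch of the pathway that involves lin-28. The gene lin-66 (WBGene00001562, IV, 13888079 to 13893986, plus strand) is known to limit lin-28. It had 2 pooled peaks that overlapped by 96 bp just before the first of its 3 starts. Their summits were 521 bp upstream (IV, 13887388 to 13887727, rank 1149, signal value 39.4) and 277 bp upstream (IV, 13887632 to 13887971, rank 3344, signal value 31.2). Both touched the same peaks in replicates 1, 2 and 3, which ranked 283, 512 and 958, and the outer one touched a peak of rank 7582 in replicate 4. The signal values of those 4 replicate peaks were 28.9, 11.1, 13.8 and 7.47. The summits in replicates 1, 2 and 3 were 451, 281 and 355 bp upstream of the start, and in replicate 4 the summit was 693 bp upstream. With all 4 replicates the mean was 445 bp with an SD of 179 bp (n = 4). The replicate 2 summit was 4 bp from the inner pooled summit and 240 bp from the outer one. This SD thus mixes 2 overlapping peaks and does not measure the spread of 1 position. After nhl-2 and ain-1, the lin-66 region had the next lowest median, over the replicates, of the rank of its strongest peak.

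The gene lin-46 (WBGene00003031, V, 12968855 to 12970730, plus strand) encodes a gephyrin-like protein that acts downstream of lin-28. Its stronger pooled peak (V, 12970636 to 12970975, rank 1391, signal value 37.7) had its summit just past the 3′ end of the gene, 304 bp upstream of the next gene, pnn-1, and 1951 bp from the lin-46 start. Its match ranked 4161, 1016 and 5177 in replicates 2, 3 and 4, and replicate 1 had none. The other peak (V, 12967825 to 12968164, rank 2340, signal value 33.7) lay 860 bp upstream of lin-46 but 13 bp upstream of a start of R186.8, a protein-coding gene on the opposite strand. Its match ranked 1121, 15342 and 13384 in replicates 1, 2 and 3, and replicate 4 had none. It was the one member peak with similar sequence elsewhere in the genome, in 39 alignments of at least 50 bp and 90% identity. An alignment can cover a part of the peak, and several can lie at 1 place, so this is not a number of copies. Reads from such sequence could be counted at the peak. By the same rule, similar sequence elsewhere was found for 20 of the final peaks (6.41%).

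The gene lin-41 (WBGene00003026, I, 9334800 to 9342496, minus strand) encodes a TRIM-NHL RNA-binding protein and is a target of let-7. Its single pooled peak (I, 9332471 to 9332810, rank 1593, signal value 36.5) lay downstream of the gene, 9278 bp from the nearest lin-41 start. The summit was 8 bp downstream of the start of the noncoding RNA C12C8.8 and 305 bp upstream of a start of the microRNA mir-79. The peak entered the gene region by its edge, since no pooled summit fell within 2000 bp of lin-41. Its match ranked 921 in replicate 1 and 8498 in replicate 3, and replicates 2 and 4 had none.

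The gene lin-14 (WBGene00003003, X, 11465560 to 11485871, plus strand) encodes a nuclear DNA-binding protein of early fates and is the main target of lin-4. Its peak in intron 3 (X, 11476510 to 11476849, rank 2248, signal value 34.0) lay 3681 bp upstream of the internal start and 604 bp downstream of the start of the noncoding RNA T25C12.5. Its match ranked 1558 in replicate 1 and 10949 in replicate 4. Its upstream peak (X, 11464423 to 11464762, rank 2805, signal value 32.4) lay 967 bp before the first start, and 70 bp upstream of the noncoding RNA T25C12.10. The match of the upstream peak ranked 17561 in replicate 2 and 10011 in replicate 4. Each lin-14 peak was thus found in 2 of the 4 replicates. The strongest lin-14 peak of replicate 2, at rank 249 (X, 11473096 to 11473391, signal value 13.6), lay in an intron 7117 bp upstream of the internal start, where the pooled list had no peak.

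The gene hbl-1 (WBGene00001824, X, 5822142 to 5827755, plus strand) encodes a zinc finger protein related to Drosophila Hunchback that keeps early larval fates. Its 2 pooled peaks were both upstream. The nearer peak (X, 5820969 to 5821308, rank 2868, signal value 32.2) had its summit 1003 bp before the first start and 895 bp downstream of the start of the noncoding RNA F13D11.8, with matches at rank 3748 in replicate 1 and 19203 in replicate 4. The farther peak (X, 5819952 to 5820291, rank 3255, signal value 31.4) had its summit 2020 bp before the start, inside the noncoding RNA F13D11.20. Its match ranked 3797, 996 and 11183 in replicates 1, 2 and 3, and replicate 4 had none. No peak of hbl-1 was thus found in all 4 replicates.

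The gene lin-29 (WBGene00003015, II, 11917642 to 11935343, minus strand) encodes the zinc finger protein of the switch to adult fates. Of its 3 pooled peaks, the strongest (II, 11928963 to 11929302, rank 1937, signal value 35.1) lay in intron 4, 6207 bp from the nearest lin-29 start and 119 bp downstream of the start of the noncoding RNA Y17G7A.4. It touched a peak in all 4 replicates, at ranks 17492, 3488, 1062 and 1491, the first with a q-value of 0.938. The second peak (II, 11921541 to 11921880, rank 2804, signal value 32.4) lay 273 bp upstream of the internal start, with matches at rank 1414 in replicate 1 and 9606 in replicate 2. The last (II, 11916101 to 11916440, rank 3516, signal value 31.0) lay downstream of the gene, 242 bp upstream of hmg-12, and was found in replicate 3 alone, at rank 13670. It was the weakest of the 20 member peaks.

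**Figure D2:**
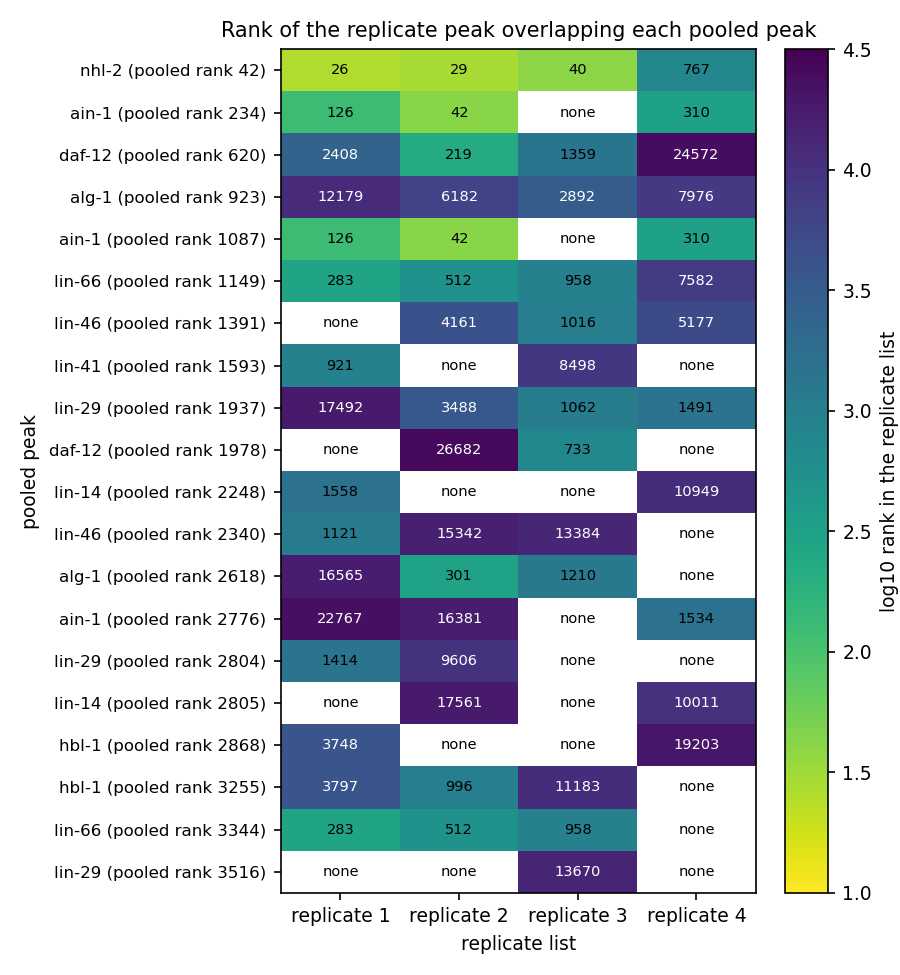
Rank of the replicate peak that touches each of the 20 pooled peaks, with the peaks from strongest (top) to weakest (bottom), the replicates in columns, and colour as log10 rank. White cells have no such peak; the nhl-2 row has ranks of 26, 29, 40 and 767, and 15 of the 20 rows have at least 1 white cell.

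Found in all 4 replicate lists were 5 of the 20 member peaks, at nhl-2, daf-12, alg-1, lin-66 and lin-29, against 34% of all pooled peaks. The replicate lists cover 8.55% to 10.9% of the genome and a match needs only 1 bp, so a match can be a weak background peak. The highest q-value among the matches was 0.0594 at nhl-2, 0.481 at lin-66, 0.853 at daf-12, 0.895 at alg-1 and 0.938 at lin-29. In 3 or more lists 13 were found, against 74.6%. By replicate, 16, 16, 13 and 12 of the 20 were found in replicates 1 to 4, where the whole pooled list was found at 88.0%, 66.6%, 78.5% and 72.0%. The median rank of the member peaks in the pooled list was 2113, against 1956.5 over that list, and 9 of the 20 were in its stronger 50%. The 18 member peaks outside the final list had signal values of 31.0 to 46.6 and q-values of 0.157 to 0.919, with a median of 0.792. None of these 18 had a q-value under 0.05, against 3.03% of the 3600 pooled peaks outside the final list, whose median was 0.747.

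**Figure D3:**
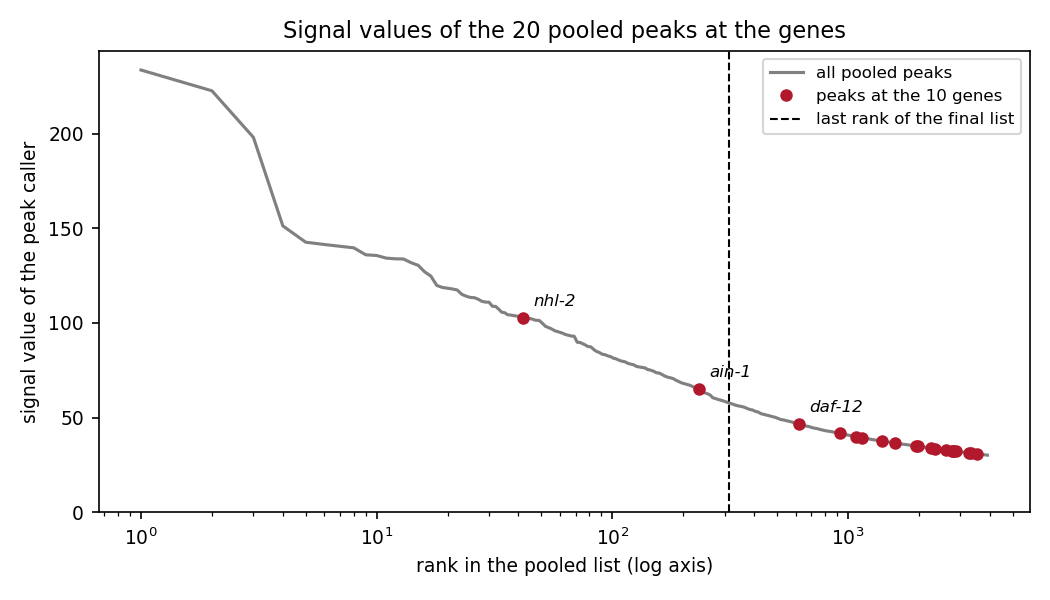
Signal value of the authors' peak caller (y axis) against rank in the pooled list (x axis, log scale), with all pooled peaks as a grey line and the 20 member peaks as red points. The dashed line is the last rank of the final list; nhl-2 and ain-1 are to its left, at 103 and 65.0, and the other 18 points lie between 31.0 and 46.6.

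Within the gene regions, the replicate lists held 56, 77, 67 and 75 peaks, a mean of 68.8 ± 9.54 (SD, n = 4). This is 4.71 ± 0.653 peaks per 10 kb, against 2.83 ± 0.315 over the whole genome. In the pooled list the members had 1.37 peaks per 10 kb, against 0.390. By gene, the mean over replicates ran from 2.53 ± 1.57 per 10 kb at lin-29 to 8.09 ± 3.97 at ain-1 (SD, n = 4). At ain-1 the replicates held 3, 9, 4 and 8 peaks, with replicates 2 and 4 high. The median rank of the member peaks was 10196, 13000, 11799 and 11733 in replicates 1 to 4, against 11842.5 over the whole list of replicate 1 and 15000.5 over each of the others.

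Among the top peaks of replicate 1, nhl-2, ain-1 and lin-66 were represented, against 2.41% of all protein-coding genes. Replicate 2 had 5 members there, namely lin-14, nhl-2, daf-12, alg-1 and ain-1, against 2.2%. Replicate 3 had nhl-2 alone, against 2.37%, and replicate 4 had ain-1 alone, against 2.29%. The mean was 2.5 ± 1.91 members (SD, n = 4). The peaks of lin-14, daf-12 and alg-1 among the top peaks came from replicate 2 alone.

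**Figure D4:**
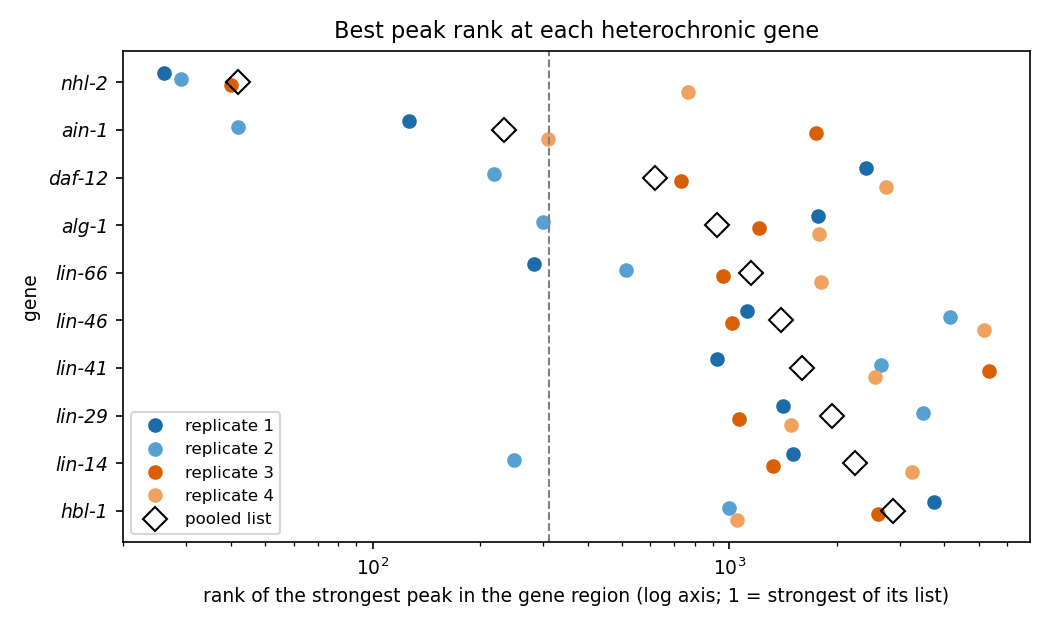
Rank of the strongest peak in each gene region (x axis, log scale, 1 is the strongest of its list) for replicates 1 to 4 (coloured points) and the pooled list (diamonds), with genes ordered by pooled rank. The dashed line is the last rank of the final list; 3 of the 4 nhl-2 points and 3 of the 4 ain-1 points are to its left, and the lin-46, lin-41, lin-29 and hbl-1 points are all to its right.

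By the median over replicates of the strongest peak in each region, nhl-2 came first at rank 34.5, ahead of ain-1 at 218 and lin-66 at 735. Then came lin-14 at 1415, lin-29 at 1452.5, alg-1 at 1489, daf-12 at 1570.5 and hbl-1 at 1832.5. Last were lin-41 at 2613.5 and lin-46 at 2641. The ranges over the 4 replicates overlapped in each of the 9 pairs of neighbours in this order, so no neighbour is set apart from the next. At nhl-2 the range was 26 to 767, below the whole range of 4 members, lin-29, hbl-1, lin-41 and lin-46. At ain-1 it was 42 to 1746. Replicate 1 has a shorter list than the others, and ranks from lists of different lengths show no change between replicates.

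In place, 10 of the 20 member peaks had their summit upstream of the gene, 5 in an intron, 3 downstream, 1 in a coding exon and 1 in a 5′ UTR. A summit within 500 bp of an annotated protein-coding start was found for 6 of the 20, against 35.4% of all pooled peaks. In the replicate lists 26.8 ± 4.81% of member peaks were that near a start (SD, n = 4), and 27.0 ± 0.587% of the whole lists. For 15 of the 20 peaks the nearest protein-coding start was one of the member's own. The exceptions were the nhl-2 peak (tag-340), both lin-46 peaks (pnn-1 and R186.8), the lin-41 peak (cbl-1) and the weakest lin-29 peak (hmg-12). No share over all genes or peaks was computed for this count or for the counts by place. A peak in the region of a long gene with several starts more often has a start of that gene nearest. A window from 1000 bp before to 200 bp after any annotated start, taken as the promoter, held a pooled summit at 7 of the 10 genes, against 9.25% of all protein-coding genes. The 3 without were daf-12, hbl-1 and lin-41. A gene with more annotated starts has more of this window, and the count is not adjusted for that. The lin-29 summit was in the window of its internal start only. The nhl-2 and lin-46 summits in the window were nearer to a start of another protein-coding gene. A final summit was in this window at nhl-2 alone, against 1.11%, since the ain-1 summit lay just beyond it.

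Of 11 other protein-coding genes of the pathway, 4 had a final peak within 2000 bp and 8 a pooled peak, beside the 2.37% and 23.6% of all protein-coding genes. Of 5 microRNA genes of the pathway, 1 had a final peak and 3 a pooled peak, with 1 peak shared by 2 of them, beside 5.75% and 29.5% of the 261 microRNA genes. The genes with a final peak were lin-42, a period-like gene (rank 11, with 3 final peaks), sea-2 itself (rank 29, with 2), kin-20, a casein kinase gene (rank 88), lin-28, the RNA-binding regulator of early fates (rank 185), and the microRNA let-7 (rank 272). The strain carries the sea-2 transgene besides its own sea-2 gene. The kin-20 peak (X, 15276753 to 15277092, signal value 84.5) lay 841 bp downstream of a start, and its match ranked 94, 189, 28 and 405 in replicates 1 to 4. The let-7 peak (X, 14747000 to 14747339, signal value 60.1) lay 1849 bp upstream of an annotated start of let-7. Its match ranked 558, 516, 1477 and 1199 in replicates 1 to 4, outside the top peaks of each. For the lin-28 peak the match ranked 206, 213, 882 and 839, outside the top peaks of replicates 3 and 4. Of 7 further protein-coding genes of microRNA processing and silencing, 0 had a final peak and 3 a pooled peak, beside the same 2.37% and 23.6%. Of 5 protein-coding genes of the DAF-12 hormone pathway, 1 had a final peak and 1 a pooled peak, beside the same shares. It was din-1, which encodes a corepressor that binds DAF-12. Its strongest peak (II, 11635030 to 11635369, rank 14, signal value 132) lay 1591 bp upstream of a start, and its match ranked 5, 6, 50 and 1872 in replicates 1 to 4. The lists are short, and nothing is read from their counts.

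Among 289 other final peaks found in every replicate, the 3 with ranks most like those of the nhl-2 peak had as nearest protein-coding genes drr-2, sea-2 and otub-2. Likeness was measured as the distance in log10 rank over the 4 replicates, which was 0.521, 0.557 and 0.735. The drr-2 peak ranked 18, 38, 21 and 1892, the sea-2 peak 29, 74, 17 and 656, and the otub-2 peak 75, 85, 38 and 357. Each had its weakest rank in replicate 4, like the nhl-2 peak. They were chosen by these same ranks, so nothing is read from this. The ain-1 peak could not be compared in this way, since replicate 3 had no peak there.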

How the data were processed

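Peak lists of 4 replicates, of the pooled replicates and of the final set were used on ce11; the ce10 lists were not used. Per the deposited file records, each list was called against 1 shared control file, and the final list was thresholded on the IDR. Aligner, caller, IDR threshold and depth were not given in the sources used here. The authors deposited a signal value for each peak, used here to rank peaks within a list. They also deposited a −log10 q-value, converted here to a q-value. The 10 genes and the further gene lists were chosen with earlier results of these data known.

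Positions are 1-based. Gene models came from Ensembl release 115 on WBcel235, and 0 peaks ended beyond a chromosome of it. A start is an annotated one, which in C. elegans can be a trans-splice site. A pooled peak was found in a replicate if it shared at least 1 bp with a peak of that list. Where several peaks did, the best-ranked was taken as its match. Signs of bp distances follow the gene's strand. Similar sequence elsewhere in the genome was searched with blastn 2.17.0 (alignments of at least 50 bp, 90% identity). The counting steps were tested on simulated data. Python 3.11.15, pandas 2.3.3 and numpy 2.4.6 were used.

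All 10 members are named. Other pathway genes are named if they have a final peak, and the rule also takes in neighbours whose start is nearer to a member peak than the member's own. At 11 of the 20 peaks there were such neighbours, up to 10 at 1 peak, and the nearest of each is named. For the nhl-2 peak the 3 final peaks most alike are named. Further neighbours, replicate peaks and the inverted repeat were chosen after their values were seen. No comparison was tested, since there is 1 group and the members were chosen with results known. Replicates that stand apart were looked for with Dixon's critical value. Counts of members stand beside the same share over all genes or peaks where one was computed. Alternatives covered the flank, the promoter window, the overlap rule, the number of strongest peaks, and leaving out each replicate.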

Additional observations from a re-analysis of the deposited data

Results flagged for a closer look

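Values of the 4 replicates were compared within 28 sets, and in 4 of them 1 replicate stood apart, by the gap to its nearest neighbour as a share of the whole range, against Dixon's critical value. For continuous values chance gives about 1 such set in 20. That rate does not apply to the sets of peak counts, where tied replicates make the gap 1.000 however small the difference. Replicate 4 had the weakest nhl-2 peak, both as the strongest peak of the gene region and as the match of the pooled peak, with a gap of 0.873 of the range on the log10 rank scale in each case; both values come from the same peak. Replicate 1 had 7 peaks in the nhl-2 region and the other replicates 5 each, a gap of 1.000. Replicate 4 had 9 peaks in the lin-41 region and the other replicates 5 each, a gap of 1.000.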

How the results depend on the processing

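Of 75 alternatives, 49 left the value within its limit and 26 moved it. The limit was a ratio of 1.5 for counts and medians, and 1 SD for the mean over replicates. Counts and ranks have no sign, so a reversal was not looked for. The median pooled rank moved under none of the alternatives run for it. These covered only the flank and the overlap rule, and no replicate was left out. The 2 genes with a final peak became 0 with the gene body alone and 1 with the stronger 50% of the list. The 10 genes with a pooled peak became 6 with the gene body alone. The 7 genes with a pooled promoter summit became 3 with a window of 500 bp upstream to 100 bp downstream and 1 in the final list. The mean of 2.5 genes among the strongest peaks became 8.5 with 3000 peaks per replicate. The 5 peaks found in 4 replicates became 1 with summits within 100 bp, 2 within the 10000 strongest and 1 within the 3000 strongest.

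With 1 replicate left out, a peak was required in each of the other 3. The ranges were 0 to 1 genes with a final peak (among the top peaks of each), 5 to 7 with a pooled peak and 3 to 4 with a promoter summit. From 4 to 5 genes (7 with all replicates) were the nearest protein-coding gene to the pooled summit closest to their own start. The requirement itself removes peaks from these gene counts. From 5 to 9 peaks were found in all remaining lists, a count that can only stay or rise when a replicate is left out. The mean of genes among the strongest was 1.67 to 3, taken over the remaining replicates without this requirement. Highest counts of peaks came without replicate 3 (8) and replicate 4 (9). The best pooled rank became 2618 at alg-1 and 2776 at ain-1 with the gene body alone. No value was had for lin-41, lin-66, hbl-1 and nhl-2 with the gene body alone, or for lin-41 with 1000 bp flanks. No paired analysis was possible because there is 1 group. Depth is unknown, and a peak that is missing from a list was only not listed there, which does not show that it is absent.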
